A study of Mus musculus with 9 samples.

Results

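Myc, Mycn and Max of the Myc family and Myb, Mybl1 and Mybl2 of the Myb family were followed across 9 mouse expression arrays. They were taken as every probe set that the array annotation gives to exactly 1 of these 6 symbols, which gave 12 probe sets, of 34945 on the array with exactly 1 gene and 6 of 18193 genes. All 12 passed the filter on low values, which required a value over the 40th percentile of the array concerned on 3 or more of the 9. That percentile lay between 44.7 and 52.9 intensity units and serves below as the background level.

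The arrays fall into 3 groups of 3 samples, which the labels call biological replicates. DKK1-treated ESC-RPCs are cells that were differentiated in culture from mouse embryonic stem (ES) cells toward retinal progenitor cells (RPCs). They were then given recombinant DKK1, which antagonises Wnt signalling from outside the cell, at 1 ng/ml for 1 day. Untreated ESC-RPCs are the same preparation without DKK1. Both ESC-RPC groups came from 1 ES cell line, 46C, made by gene targeting in E14Tg2a.IV cells. They were grown as embryoid bodies for 3 days with SB431542, which blocks Nodal receptors, and plated on Matrigel in medium free of retinoic acid. Sox1+ cells (35.8%) were sorted on day 7, and then kept in N2 medium with 10 µM DAPT, a blocker of Notch processing, and 20 ng/ml bFGF. Primary RPCs were isolated from the neural retina of C57 mice at postnatal day 1, and their source label describes them as cultured. The series uses the primary cells as the negative control in a search for pathways of proliferation and oncogenesis. Cell line, culture, stage and genetic background differ together between ESC-RPCs and primary cells and cannot be told apart.

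Myc and Mycn are basic helix-loop-helix transcription factors that bind E-box DNA as dimers with Max, and they activate genes of ribosome production, nucleotide synthesis and the cell cycle. Max also dimerises with the Mxd proteins, Mnt and Mga, which repress such genes. Myb and Mybl1 are activators best known from blood progenitors and from male germ cells, and Mybl2 works in most dividing cells, where it joins the MuvB complex at promoters of mitotic genes. In retina, Mycn is known as the Myc family member that drives growth of progenitors.

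The RefSeq promoter table (GRCm38.p6, 300 bases per gene start) held 4 of the 6 genes, Mycn, Max, Myb and Mybl2. The last 95 bases before the start and the first 5 after it are shown for 3 of them. Each of these holds an E-box or an E2F-like sequence near its start. Capitals mark an E-box, CACGTG, in Max and the E2F-like sequence GGCGGGA in Myb and Mybl2.
Max, chr12:76962244-76962343, minus strand: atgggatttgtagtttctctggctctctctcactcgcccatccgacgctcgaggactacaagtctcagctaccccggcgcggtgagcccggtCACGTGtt
Myb, chr10:21160980-21161079, minus strand: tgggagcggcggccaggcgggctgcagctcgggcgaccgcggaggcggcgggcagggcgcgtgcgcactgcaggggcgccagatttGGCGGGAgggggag
Mybl2, chr2:163054540-163054639, plus strand: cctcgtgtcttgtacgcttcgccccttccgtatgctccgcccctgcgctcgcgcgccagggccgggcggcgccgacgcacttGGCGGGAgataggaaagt

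Both strands of all 300 bases were searched. The E-box of Max began at position -3 relative to the start, and CACGTG lay in 7.15% of all 32851 promoters in the table and in 24.4% of 41 promoters of the Myc-activated targets. GGCGGGA began at -9 in Myb and at -13 in Mybl2, and lay in 11.3% of all promoters. It lay in 24.4% of promoters of the Myc-activated targets, 29.2% of those of Mybl2 and Foxm1 targets and 27.8% of those of E2F targets. The printed bases were 80% G or C in Myb and 70% in Mybl2, and the part of base composition in these matches was not tested. The spelling GGCGGGA was added after the promoters had been read. The first E2F spelling searched, TTCCCGC, was in none of the 4 and in 4.6% of all promoters. The cell cycle element TTTGAA was in 66.7% of 24 promoters of Mybl2 and Foxm1 targets, against 17.9% of all promoters. Among the 4 it was found in Mycn, on the minus strand of the gene at -14. The Myb core AACNG, present in 80.3% of all promoters, was in all 4, and the TCF sequence CTTTGAT, in 3.73% of all, was in none of them. Each match is a description of letters in this window.

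Across the 9 arrays the 6 genes fell into 3 patterns. Myb and Mybl1 were far lower in both ESC-RPC groups than in primary RPCs, Myc and the brighter Mybl2 probe set were higher in ESC-RPCs, and the brighter Mycn probe sets had overlapping values in all 3 groups. Max was modestly lower in ESC-RPCs. No member passed the test between DKK1-treated and untreated cells. In bulk samples fewer cells of a type and less RNA per cell cannot be told apart.

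**Figure D1:**
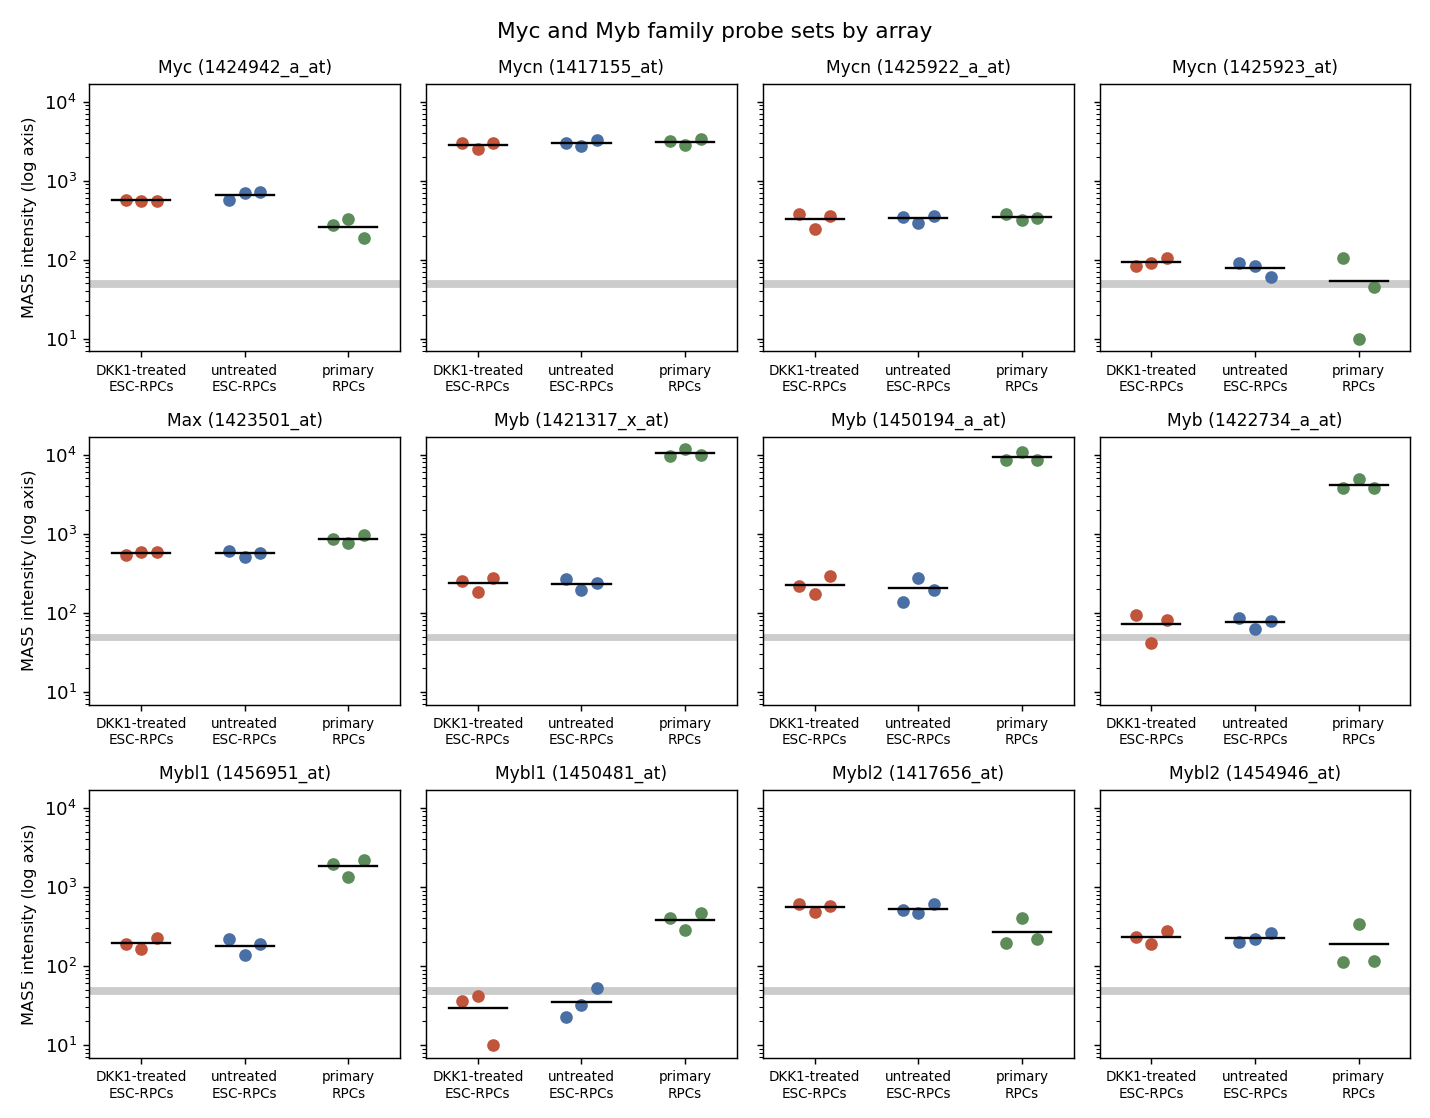
Intensity of each of the 12 probe sets on each array (log axis), with 1 point per array, a black line at each group's mean and a grey band over the arrays' 40th percentiles. The 3 Myb probe sets lie between 41.8 and 290 in ESC-RPCs and between 3758 and 11809 in primary RPCs, while the Mycn probe set 1417155_at lies between 2501 and 3390 on all 9 arrays.

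Myc, the general growth regulator of the family, was measured by 1 probe set (1424942_a_at). Its intensity was 573, 555 and 557 in DKK1-treated cells, 575, 688 and 708 in untreated cells, and 274, 324 and 187 in primary RPCs. Every ESC-RPC array lay above every primary array. Untreated cells exceeded primary cells by 1.36 ± 0.18 on the log2 scale (SE from limma, adjusted p = 1.24e-04), a 2.57-fold difference, and DKK1-treated cells exceeded them by 1.14 ± 0.18 (adjusted p = 4.25e-04), or 2.20-fold.

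Mycn, the family member of retinal and neural progenitors, had 3 probe sets. The brightest, 1417155_at, read 2975, 2501 and 2956 in DKK1-treated cells, 2964, 2707 and 3243 in untreated cells, and 3162, 2796 and 3390 in primary cells. All 3 groups overlapped. The log2 difference was -0.07 for untreated minus primary cells (95% interval -0.30 to 0.16, adjusted p = 0.625) and -0.15 for DKK1-treated minus primary cells (-0.38 to 0.08, adjusted p = 0.269). The second probe set, 1425922_a_at, read 246 to 372 in DKK1-treated, 292 to 357 in untreated and 317 to 374 in primary cells, and it too passed no test.

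The third Mycn probe set, 1425923_at, was close to background and did not follow the brightest one: Pearson's r was 0.01 over the 9 arrays, which share their groups. It read 84.2, 91.1 and 104 in DKK1-treated cells, 91.5, 82.7 and 61.0 in untreated cells, and 105, 9.82 and 44.8 in primary cells. The difference was 1.11 ± 0.65 for untreated minus primary cells (adjusted p = 0.185) and 1.37 ± 0.65 for DKK1-treated minus primary cells (adjusted p = 0.105). Without primary replicate 1 the probe set was called in both comparisons (adjusted p = 0.0182 for untreated and 0.00969 for DKK1-treated minus primary cells). Both primary arrays left were then below background, so no size is given for that difference.

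Max, the dimer partner that carries the E-box printed above, had 1 probe set (1423501_at). It read 534, 584 and 580 in DKK1-treated cells, 608, 510 and 573 in untreated cells, and 850, 767 and 967 in primary cells. The primary arrays were the highest 3 of the 9. Max was lower by -0.61 ± 0.12 in untreated cells (adjusted p = 0.00176) and by -0.60 ± 0.12 in DKK1-treated cells (adjusted p = 0.00191), each against primary cells.

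Myb, the activator of blood progenitors, had 3 probe sets that differed between groups in the same way. For 1421317_x_at the values were 254, 185 and 278 in DKK1-treated cells, 269, 192 and 239 in untreated cells, and 9758, 11809 and 9910 in primary cells. The lowest primary array lay far above the highest ESC-RPC array for each of the 3 probe sets. Untreated cells were lower than primary cells by -5.50 ± 0.17 in log2 (adjusted p = 2.45e-09), which is 45.3-fold, and DKK1-treated cells by -5.47 ± 0.17 (adjusted p = 2.41e-09), which is 44.3-fold.

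The second Myb probe set, 1450194_a_at, averaged 226 ± 59.4 in DKK1-treated, 203 ± 68.8 in untreated and 9312 ± 1395 in primary cells (SD, n = 3 arrays each). Its log2 difference was -5.56 for untreated minus primary and -5.38 for DKK1-treated minus primary cells. The third, 1422734_a_at, averaged 72.4 ± 27.3 in DKK1-treated, 75.5 ± 11.9 in untreated and 4182 ± 666 in primary cells (SD, n = 3 each), with differences of -5.79 and -5.92 in the same comparisons. It was the one Myb probe set to touch background, on 1 DKK1-treated array at 41.8. Among the 6 ESC-RPC arrays, 1450194_a_at did not track 1421317_x_at (r = -0.04, over arrays that share their groups), while both were clearly above background.

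Mybl1, the activator of the male germ line, had 2 probe sets. The brighter, 1456951_at, read 187, 163 and 227 in DKK1-treated cells, 217, 136 and 188 in untreated cells, and 1956, 1331 and 2202 in primary cells. The groups of ESC-RPCs overlapped each other and neither overlapped the primary group. The difference was -3.34 ± 0.22 for untreated minus primary cells (adjusted p = 6.06e-07), or 10.1-fold lower, and -3.23 ± 0.22 for DKK1-treated minus primary cells (adjusted p = 7.57e-07), or 9.38-fold lower.

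The second Mybl1 probe set, 1450481_at, read 36.4, 41.2 and 10.0 in DKK1-treated cells, 22.3, 32.03 and 51.9 in untreated cells, and 404, 286 and 469 in primary cells. It was above background on 0 of 3 DKK1-treated arrays and on 1 of 3 untreated arrays. Against that background it was at least 8.04-fold lower in DKK1-treated than in primary cells (adjusted p = 9.05e-05). The probe set was called lower in untreated than in primary cells as well (adjusted p = 2.09e-04). The size of that difference depends on how values near background are treated: it was -3.51 ± 0.51 as measured and -2.63 with 32 added before taking log2.

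Mybl2, the member that works with MuvB in dividing cells, went the other way. Its brighter probe set, 1417656_at, read 610, 483 and 569 in DKK1-treated cells, 512, 469 and 611 in untreated cells, and 197, 399 and 221 in primary cells. Every ESC-RPC array exceeded every primary array, with primary replicate 2 nearest to them. The difference was 1.03 ± 0.23 for untreated minus primary cells (adjusted p = 0.00403) and 1.09 ± 0.23 for DKK1-treated minus primary cells (adjusted p = 0.00279).

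The other Mybl2 probe set, 1454946_at, read 236, 190 and 278 in DKK1-treated cells, 200, 220 and 261 in untreated cells, and 111, 337 and 115 in primary cells. Primary replicate 2 was the highest array of all 9 and the other primary arrays were the lowest. The probe set was not called for untreated minus primary cells (0.47 ± 0.36, adjusted p = 0.305) or for DKK1-treated minus primary cells (0.51 ± 0.36, adjusted p = 0.266). Without primary replicate 2 the differences were 1.00 (adjusted p = 0.00162) and 1.04 (adjusted p = 0.00126). For 1417656_at they were then 1.34 and 1.40. With the probe sets of a gene averaged, Mybl2 was not called for untreated minus primary cells (0.75, adjusted p = 0.0553).

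**Figure D2:**
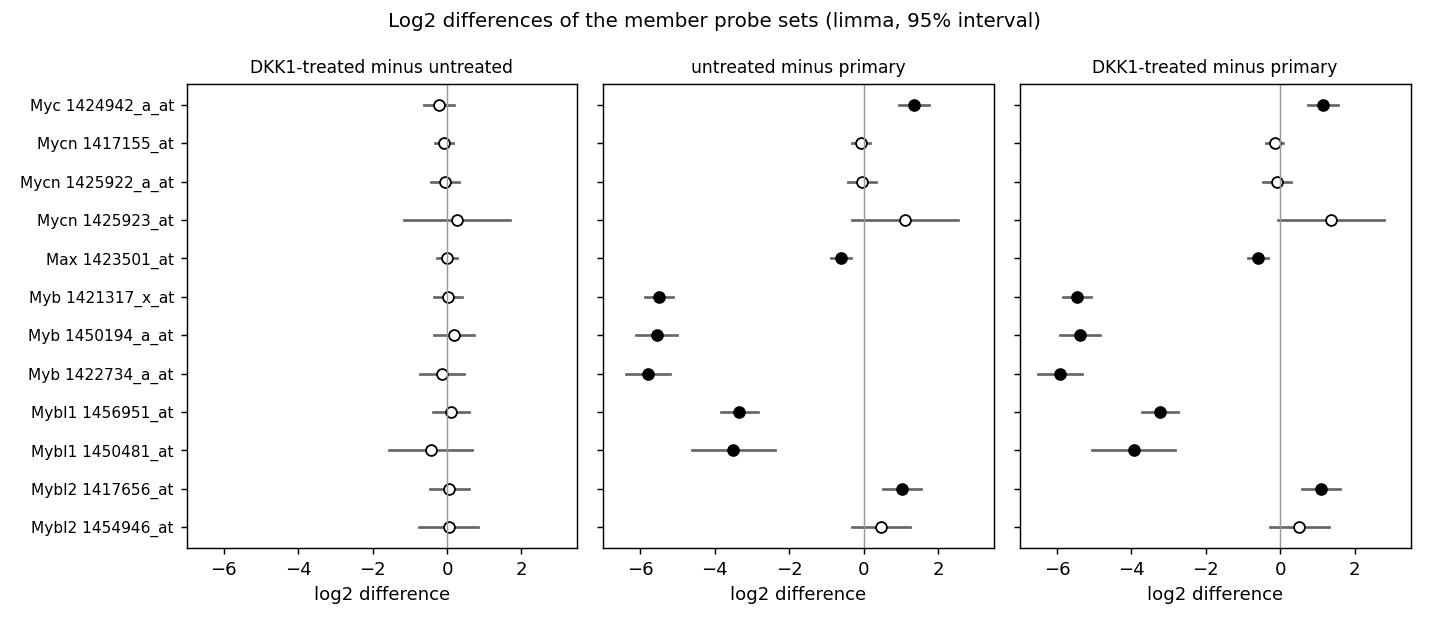
Log2 difference of each probe set in each of the 3 comparisons, with its 95% interval from limma; filled points were called at an adjusted p below 0.05. All 12 points are open for DKK1-treated minus untreated cells, and in each comparison with primary cells the 3 Myb probe sets lie furthest to the left.

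Between DKK1-treated and untreated cells, which asks what 1 day of the Wnt antagonist does, 0 of the 12 probe sets were called, against 0% of 29052 kept probe sets. All 12 had an adjusted p of 0.999941, and 0 had an unadjusted p under 0.05, a level that 759 of all kept probe sets reached. Myc, a gene known as a target of Wnt signalling in other tissues, was the one member whose groups did not overlap, where 11.4% of all kept probe sets did not overlap. Its log2 difference was -0.22 (95% interval -0.62 to 0.18). By replicate number the Myc differences were -0.0050, -0.31 and -0.35. The interval for Mycn (1417155_at) ran from -0.31 to 0.15, for Max from -0.26 to 0.28, for Myb (1421317_x_at) from -0.35 to 0.41, for Mybl1 (1456951_at) from -0.38 to 0.59 and for Mybl2 (1417656_at) from -0.45 to 0.58.

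Deviations from the group means were correlated by replicate number in the 2 ESC-RPC groups, so these arrays were also fitted in pairs. With the replicate number as a block on the 6 ESC-RPC arrays, 61 of 29052 probe sets were called, 40 higher and 21 lower in DKK1-treated cells, and 0 of the 12 members. Myc then had a difference of -0.22 ± 0.08 (adjusted p = 0.318).

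In untreated minus primary cells 8 of the 12 probe sets were called, 2 higher and 6 lower, where 47.5% of all kept probe sets were called. The groups did not overlap for the same number, 8 of 12, against 55.7% of all. In DKK1-treated minus primary cells 8 were called too, 2 higher and 6 lower, against 47.6%, and 8 did not overlap, against 55.6%. These comparisons share the primary arrays. About as many probe sets differ in the whole table as do not, so the counts of members say little beside the sizes of the differences.

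Primary replicate 2 stood apart in general: its median intensity was 96.9, against 83.0 to 86.0 on the other 8 arrays. Of 7 measured retinal progenitor markers, 5 were lower and 2 higher in both ESC-RPC groups than in primary cells. The 2 higher ones were Sox2, a factor of neural stem cells in general, by 0.30 and Fgf15, a growth factor, by 1.52 in untreated against primary cells. Pax6, Six3 and Lhx2 were among the lower ones but averaged 1255, 1534 and 1114 in DKK1-treated cells and 1323, 1054 and 1379 in untreated cells, above background, against 10035, 6896 and 4048 in primary cells. The eye field genes Rax and Six6 averaged 12.5 and 63.2 in DKK1-treated cells, 28.2 and 46.0 in untreated cells, and 3939 and 4386 in primary cells. The means of Rax, which defines the eye field, were thus below background in the ESC-RPCs, which are labelled as retinal progenitors. All 8 pluripotency markers were higher in ESC-RPCs, with summed intensities of 20910 to 22641 in DKK1-treated, 18040 to 22015 in untreated and 436 to 765 in primary cells. Of 6 neural progenitor markers 4 were called higher and 1 lower in untreated than in primary cells, and 3 and 1 in DKK1-treated cells. Sox1, the marker used for sorting, averaged 2886 in DKK1-treated, 2831 in untreated and 24.4 in primary cells. Of 5 measured markers of cycling cells 1 was called higher and 2 lower in untreated cells, and 0 and 2 in DKK1-treated cells.

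Markers of the cell types in which Myb and Mybl1 are best known were read beside these genes. Of 8 blood progenitor and erythroid markers 3 were measured, with summed intensities of 3039 to 3895 in DKK1-treated, 2538 to 3521 in untreated and 525 to 949 in primary cells. Tal1, a transcription factor of blood stem cells that some neurons also use, made up most of the ESC-RPC sums, at 2569 in DKK1-treated, 2168 in untreated and 38.3 in primary cells. Gata1, which defines the erythroid line, was at 30.6 in DKK1-treated, 39.8 in untreated and 35.2 in primary cells, and each of these means was below background. None of 5 lymphocyte markers passed the filter. Of 8 microglia markers 5 were measured, summing to 99.0 to 190 in DKK1-treated, 128 to 145 in untreated and 765 to 1270 in primary cells. Of 5 male germ cell markers 3 were measured, summing to 178 to 194 in DKK1-treated, 143 to 159 in untreated and 201 to 316 in primary cells. Dmc1 was called lower in both ESC-RPC groups, at 80.3 in DKK1-treated, 64.4 in untreated and 177 in primary cells. Sycp3 was called higher in DKK1-treated than in primary cells, at 69.0 against 29.1, and Prm1 was not called.

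Markers of photoreceptors and 2 of 3 measured endothelial markers were lower in ESC-RPCs, and those of mesenchyme were higher. Of 6 measured retinal neuron markers 3 were called lower and 1 higher in both ESC-RPC groups than in primary cells. The direction of Myb and Mybl1 was thus that of most measured markers of retinal progenitors, photoreceptors, microglia and endothelium. All 5 measured photoreceptor markers were lower in both ESC-RPC groups than in primary cells, with sums of 6527 to 7621 in DKK1-treated, 6386 to 7801 in untreated and 38038 to 52493 in primary cells. Crx, which defines that lineage, was at 8.29 in DKK1-treated, 19.0 in untreated and 4478 in primary cells. Otx2 and Neurod1 made up most of the ESC-RPC sums. They averaged 5694 and 1204 in DKK1-treated, 5470 and 1449 in untreated, and 15492 and 16847 in primary cells. The 3 measured endothelial markers summed to 179 to 261 in DKK1-treated, 222 to 238 in untreated and 5616 to 7591 in primary cells. Nearly all of the primary sum came from Kdr, a growth factor receptor that retinal progenitors are also known to express. Pecam1 was not called and had the higher means in ESC-RPCs, at 63.6 in DKK1-treated, 73.5 in untreated and 50.7 in primary cells. All 6 mesenchyme markers were higher in ESC-RPCs, with sums of 16689 to 20169 in DKK1-treated, 16341 to 20425 in untreated and 479 to 706 in primary cells. The part of these cell types in the levels of the 6 genes was not tested.

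The partners and targets of both families were read from 9 lists with 152 genes, of which 133 were measured, each by its brightest kept probe set. Aurka was in 2 lists. As background, 26.0% of 13320 genes were called higher and 26.6% lower in untreated than in primary cells, with a median log2 difference of -0.0068. In DKK1-treated against primary cells 25.8% were called higher and 26.5% lower, with a median of -0.0077. In DKK1-treated against untreated cells 0 of 13320 genes were called.

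**Figure D3:**
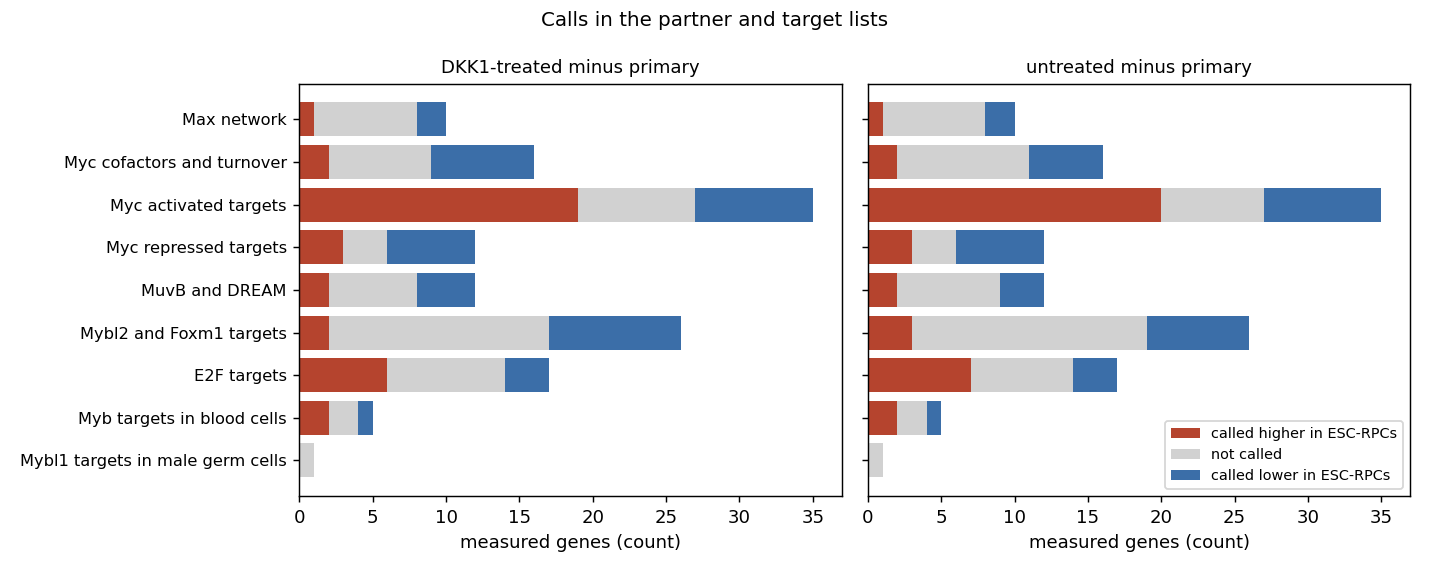
Number of measured genes in each list that were called higher, not called or called lower in ESC-RPCs than in primary RPCs, for DKK1-treated cells (left) and untreated cells (right). The Myc-activated targets have the longest red bars, 19 and 20 of 35 genes, and the Myc-repressed targets are called lower for 6 of 12 in both panels.

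The rest of the Max network, 10 of 10 genes measured, had 1 member called higher and 2 called lower in untreated than in primary cells, and the same counts in DKK1-treated cells. Mxd3, a repressor that pairs with Max, averaged 319 ± 31.7 in DKK1-treated, 436 ± 93.3 in untreated and 1442 ± 165 in primary cells (SD, n = 3 each), a difference of -1.74 for untreated minus primary cells (adjusted p = 6.83e-06). Mxd1, another such repressor, was lower by -0.71 in untreated than in primary cells (adjusted p = 0.00303). Mlx, the Max-like partner of glucose-sensing factors, was higher by 0.68 in untreated than in primary cells (adjusted p = 0.00159). Without primary replicate 3, the count called higher was 4 in untreated and 3 in DKK1-treated cells, and the count called lower in DKK1-treated cells was 1. That count was also 1 without DKK1-treated replicate 2 or 3.

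Of 16 Myc cofactors and turnover genes, all measured, 2 were called higher and 5 lower in untreated than in primary cells (median -0.19), and 2 higher and 7 lower in DKK1-treated cells (median -0.24). Fbxw7, the ubiquitin ligase subunit that marks Myc proteins for breakdown, averaged 1185 ± 26.6 in DKK1-treated, 1153 ± 50.9 in untreated and 6767 ± 639 in primary cells (SD, n = 3 each). Its difference of -2.55 for untreated minus primary cells (adjusted p = 4.86e-09) was the largest of the list. Pim1, a kinase that stabilises Myc, was lower by -0.98 in untreated than in primary cells, Ep400, a chromatin remodeller, was lower by -0.57, and Kat2a, a histone acetyltransferase recruited by Myc, was higher by 0.95. The 5 genes called lower in untreated cells numbered 9 without primary replicate 2, and 3 without untreated replicate 1, untreated replicate 2 or primary replicate 1. The 2 called higher in DKK1-treated cells were 1 without DKK1-treated replicate 2.

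Among 35 of 38 measured Myc-activated targets, 20 were called higher and 8 lower in untreated than in primary cells (median 0.30), and 19 higher and 8 lower in DKK1-treated cells (median 0.21). Npm1, a nucleolar protein of ribosome assembly, averaged 24539 ± 1386 in DKK1-treated, 25651 ± 1231 in untreated and 15018 ± 708 in primary cells (SD, n = 3 each), a difference of 0.77 for untreated minus primary cells. Nme2, a nucleoside diphosphate kinase, was higher by 0.70 in that comparison. Ccnd2, a D-type cyclin, was higher by 4.27 (adjusted p = 3.37e-08). Odc1, the first enzyme of polyamine synthesis and a textbook target of Myc, went the other way and was lower by -1.03 (adjusted p = 3.16e-06). Summed intensities of the list were 175168 to 183425 in DKK1-treated, 186179 to 190770 in untreated and 146513 to 156695 in primary cells. No 2 groups overlapped. Such sums weigh the brightest genes most, among them Npm1. Between DKK1-treated and untreated cells 0 of the 35 genes were called, and 11.4% of all kept probe sets did not overlap. Sums of the neural progenitor and male germ cell markers did not overlap there either. The gap between the sums of those 2 groups was not tested.

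All 12 Myc-repressed targets were measured, and 3 were called higher and 6 lower in untreated than in primary cells (median -0.70), with the same counts in DKK1-treated cells (median -0.69). Ndrg1, a gene of differentiated and hypoxic cells, averaged 350 ± 25.7 in DKK1-treated, 269 ± 9.91 in untreated and 4630 ± 946 in primary cells (SD, n = 3 each), a difference of -4.09 for untreated minus primary cells (adjusted p = 4.38e-09). The cyclin-dependent kinase inhibitors Cdkn1a and Cdkn2c were lower by -1.47 and -1.34. Thbs1, an inhibitor of vessel growth, was higher by 2.10.

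The MuvB and DREAM list holds the complex that Mybl2 joins and the pocket proteins and E2F factors that share it. Of its 12 genes, all measured, 2 were called higher and 3 lower in untreated than in primary cells (median -0.27), and 2 higher and 4 lower in DKK1-treated cells (median -0.23). The MuvB subunit Lin9 averaged 401 ± 46.2 in DKK1-treated, 374 ± 62.2 in untreated and 535 ± 42.9 in primary cells (SD, n = 3 each), a difference of -0.53 for untreated minus primary cells (adjusted p = 0.0122). The pocket protein Rbl1 was lower by -0.72, while E2f5 and the E2F partner Tfdp1 were higher by 0.62 and 0.68. The count called lower in untreated cells was 1 without untreated replicate 2 and 5 without primary replicate 3. In DKK1-treated cells it was 1 without DKK1-treated replicate 1, and 2 without DKK1-treated replicate 2, primary replicate 1 or primary replicate 2.

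Of 26 measured mitotic targets of Mybl2 and Foxm1, 3 were called higher and 7 lower in untreated than in primary cells (median -0.19), and 2 higher and 9 lower in DKK1-treated cells (median -0.27). Of Mybl2 itself 1 of 2 probe sets was called higher in the same comparisons. Ccna2, the cyclin of S and G2 phase, averaged 2819 ± 355 in DKK1-treated, 3046 ± 111 in untreated and 5852 ± 168 in primary cells (SD, n = 3 each), a difference of -0.94 for untreated minus primary cells (adjusted p = 1.18e-05). The cytokinesis genes Kif23 and Prc1 were lower by -1.18 and -0.69, and the mitotic cyclin Ccnb2 was higher by 0.64. Without primary replicate 2 the count called lower in DKK1-treated cells was 15.

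Of 17 measured E2F targets, the S-phase genes, 7 were called higher and 3 lower in untreated than in primary cells (median 0.47), and 6 higher and 3 lower in DKK1-treated cells (median 0.31). Tk1, thymidine kinase, averaged 1243 ± 185 in DKK1-treated, 1403 ± 198 in untreated and 577 ± 47.7 in primary cells (SD, n = 3 each), a difference of 1.28 for untreated minus primary cells (adjusted p = 2.94e-05). Ccne1, cyclin E1, was higher by 0.84, while the factors E2f1 and E2f2 were lower by -1.01 and -1.09. Summed intensities were 63007, 56746 and 67442 in DKK1-treated cells, 66089, 64269 and 71646 in untreated cells, and 45498, 68268 and 47113 in primary cells. Primary replicate 2, where Mybl2 was highest among the primary arrays, had the highest sum among them and lay within the range of the ESC-RPC arrays. Without it, 12 E2F targets were called higher in untreated and 11 in DKK1-treated cells. The sum of the Mybl2 and Foxm1 targets went the other way on that array. It was 60537 on primary replicate 2, the lowest of the primary arrays, against 75550 and 71537 on primary replicates 1 and 3.

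**Figure D4:**
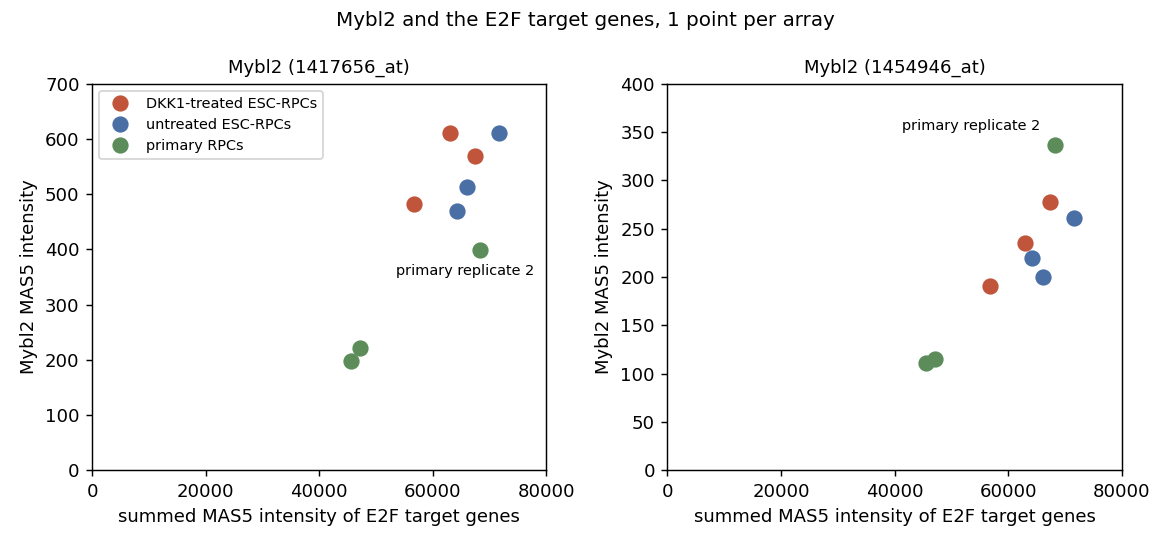
Intensity of the 2 Mybl2 probe sets on each array against the summed intensity of the 17 measured E2F targets on that array (both axes linear). Primary replicate 2, at a sum of 68268, lies apart from primary replicates 1 and 3, at 45498 and 47113, in both panels.

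The lists for Myb and Mybl1 in the cells where they are best known could be read in part. Of 10 Myb targets in blood cells 5 were measured, with 2 called higher and 1 lower in both ESC-RPC groups against primary cells. Gata3, a factor of T cells and of some neurons, averaged 986 ± 445 in DKK1-treated, 687 ± 188 in untreated and 2.84 ± 1.16 in primary cells (SD, n = 3 each), the last below background on every array. It was at least 19.5-fold higher in DKK1-treated and at least 14.2-fold higher in untreated than in primary cells. The survival gene Bcl2 was higher by 0.65 and the factor Ets2 lower by -0.97 in untreated than in primary cells, and the chemokine receptor Cxcr4 was not called (-0.21, adjusted p = 0.433). The 2 called higher were 1 in either comparison without primary replicate 1 or 3, in the untreated comparison also without untreated replicate 2 or 3, and in the DKK1-treated comparison also without DKK1-treated replicate 1 or 3. The 1 called lower in the DKK1-treated comparison was 2 without DKK1-treated replicate 3 or primary replicate 2. Of 10 Mybl1 targets in male germ cells 1 was measured, Pld6 of the piRNA pathway, at 77.5 ± 24.8 in DKK1-treated, 76.4 ± 2.51 in untreated and 79.7 ± 37.1 in primary cells (SD, n = 3 each), and it was not called (adjusted p = 0.920 for untreated minus primary cells).

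Between DKK1-treated and untreated cells 0 genes were called in each of the 9 lists. The medians were -0.12 for the Mybl2 and Foxm1 targets, of which 24 of 26 had a lower mean in DKK1-treated cells, and -0.11 for the E2F targets, of which 16 of 17 did. They were -0.06 for the Myc-activated targets, of which 24 of 35 had a lower mean. Over all genes the median was -0.0018, so lower and higher means were about equally common there. By replicate number the summed intensity was lower in the DKK1-treated array of all 3 pairs for each of these 3 lists. The same held for 6 of the 9 lists in all. Those 6 also included the Myc-repressed targets, the Myc cofactors and turnover genes, and the MuvB and DREAM list. DKK1-treated replicate 2 had the lowest sum of the ESC-RPC arrays for the Mybl2 and Foxm1 targets and for the E2F targets. In the former it read 51464, against 59727 and 64428 on the other DKK1-treated arrays. In the latter it read 56746, against 63007 and 67442. Neither the counts of lower means nor the sums were tested.

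The genes whose log2 profiles lay nearest to each member over the 9 arrays were found among 12644 named genes, by the root mean square distance after centring. For Myc these were Ptges3l (distance 0.10), Col18a1 (0.14) and Rab34 (0.14). For Mycn they were Mlst8, Drg2 and Ybx3 at 0.047 to 0.066, and for Max they were Emc1, Psmd9 and Fibp at 0.060 to 0.063. For Myb they were the collagen gene Col9a1 (0.30), the kinase gene Mak (0.38) and Prdm1 (0.39), a transcription factor of early photoreceptors. Prdm1 averaged 94.0 in DKK1-treated, 89.8 in untreated and 5288 in primary cells. For Mybl1 they were Trib1 (0.20), Map7 (0.24) and Kcna5 (0.27), and for Mybl2 they were Tdrp (0.10), Slc16a1 (0.11) and Msh6 (0.12), the last a DNA mismatch repair gene. Distances cannot be ranked between members, which vary by different amounts. The SD of the log2 profile over the 9 arrays was 0.14 for Mycn and 2.75 for Myb.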

How the data were processed

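The authors deposited 1 intensity value per probe set and array on a linear scale, made with MAS5 per the submitters' processing notes. MAS5 settings and a genome build are not given in the sources used here. In the deposited columns each array's mean after trimming 2% at either end was 500, and no intensity lay below 1. Of 45101 probe sets, 64 were controls, 932 had several genes and 9160 had none listed. Log2 was taken with no further normalisation. Kept were 29052 probe sets that exceeded the 40th percentile of 3 or more arrays, covering 13320 genes. Arrays have no read depth, and precision is limited by their number, with a median standard error of 0.18 per log2 difference.

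A linear model with 1 mean per group was fitted across the 9 arrays (R 4.3.3, limma 3.58.1, intensity trend, two-sided, Benjamini-Hochberg over all kept probe sets, called at an adjusted p below 0.05), after the procedure had been tested on simulated data. Where a group was under the 40th percentile on each of its 3 arrays, a fold was computed against those percentiles and is given as "at least". Members, lists and tests were chosen with earlier results of these data known. Named were all member probe sets, up to 4 genes per list with the smallest adjusted p over the 3 comparisons, and the 3 nearest profiles per member. Cell type markers come from fixed lists, and those named were picked to show a list.

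Same-number arrays of the DKK1-treated and untreated groups had correlated deviations (r = 0.123 to 0.318 over probe sets, against -0.234 to 0.068 for different numbers), so the numbers were taken to pair them. The pairing comes from the values and not from the labels. Same-number values with primary arrays were -0.043 to -2.36e-06, so those were not paired. Alternatives were other scalings, filters, an added constant, no trend, the replicate block, other ways to join probe sets, and each replicate left out.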

Additional observations from a re-analysis of the deposited data

How the results depend on the processing

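The count of members called was 8 of 12 probe sets in both comparisons with primary cells under every change of scaling, filter, added constant, trend or arrays fitted (8 of 11 under the stricter filter, which drops the third Mycn probe set), and 8 to 9 with 1 replicate left out. Counted per gene it was 5 of 6 genes in both comparisons with the brightest probe set. With a gene's probe sets averaged it was 4 in untreated and 5 in DKK1-treated minus primary cells. The gene then not called in untreated minus primary cells was Mybl2 (adjusted p = 0.0553). For DKK1-treated minus untreated cells the count was 0 throughout, with the replicate block on 9 arrays and on 6 arrays as well. The replicate block on all 9 arrays left the other counts at 8 and called 0 probe sets for DKK1 in the whole table, where the block on 6 arrays called 61. Leaving out the intensity trend called 6. The block changed no other call of a member. No called member changed sign under any alternative. Of the 1038 recomputed counts of calls per list and direction, 43 moved by more than 1.5 times or changed to or from 0. Their cause was not tested. Without a filter on low values 2 Myb blood targets were called lower and 1 Mybl1 germ cell target higher, each against primary cells. With arrays set to one median, 3 and 4 Myc cofactors were called lower in untreated and DKK1-treated cells, and 5 Myc-activated targets in untreated cells. Probe sets close to background, such as the third of Mycn and the second of Mybl1, carry the least precise values.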
